A study of Mus musculus with 19 samples.

Results

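Hearts that had gone through the same short ischemia and reperfusion differed from each other, within each group, in how strongly 4 early stress genes were expressed, and the hearts at the ends of that range were compared here across all other genes. Each heart was ranked within its own group by the mean log2 level of Fos, Egr1, Atf3 and Il6. The 3 highest and 3 lowest hearts of each wild-type group and the 2 highest and 2 lowest of the knockout group were taken, which gave 8 hearts called strong and 8 called weak below, 16 of the 19 hearts in the series. The other 3 hearts, 1 in the middle of each group, are called middle hearts. The words strong and weak refer to these 4 transcripts alone and say nothing about contraction or injury. The hearts were selected on measured values and were not assigned to a treatment, so each p-value below describes association with the ranking.

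The hearts were isolated and perfused on a Langendorff apparatus, which feeds buffer through the aorta, and each was stabilised for 20 min, left without flow for 20 min, reperfused for 20 min and frozen. The groups were wild-type C57Bl6J mice at ZT0, lights on (n = 7), wild-type C57Bl6J mice at ZT12, lights off (n = 7), and mice labelled Rev-erb alpha knockout, also at ZT12 (n = 5), for which the labels give neither a strain nor the allele. Total RNA of the hearts, 300 ng for each array, was hybridised to Affymetrix whole-transcript arrays with 1 heart for each array. The labels list no unperfused heart and no heart without ischemia, so every heart below had been reperfused, and no source used here gives the ages of the mice.

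Fos and Egr1 are immediate early genes, which are transcribed within minutes of a stimulus from factors already present in the cell and encode transcription factors themselves. Atf3 encodes a stress-induced transcription factor of the ATF/CREB family, and Il6 a cytokine released by several cell types of the heart. Reperfusion of ischemic heart muscle is known to switch on such genes quickly, together with inhibitors that end the response.

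Nr1d1, which encodes Rev-erb alpha, lay between 6.30 and 6.51 in the 5 hearts labelled knockout and between 6.46 and 7.28 in the wild-type hearts at ZT12, on the log2 scale of all levels below. These ranges overlap, and whether its probes lie inside the deleted stretch is stated in no source used here, so the gene does not check that label. The 12 cardiomyocyte markers had a mean of 11.1 to 11.2 in every heart. Array medians were 3.25 to 3.28 in strong and 3.25 to 3.32 in weak hearts, and the number of hearts limits the precision, with a median SE of 0.0884 for a strong minus weak difference. Replicates are called biological in the labels and were taken as separate hearts.

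The 4-gene mean, which chose the hearts, was spread unevenly. At ZT0 the strong hearts had means of 7.99, 7.86 and 7.83 (replicates 3, 6 and 7), the middle heart 7.78 and the weak hearts 7.68, 7.57 and 7.35 (replicates 4, 1 and 2). In wild-type hearts at ZT12 the strong hearts had 8.64, 8.01 and 7.98 (replicates 2, 7 and 6), the middle heart 7.95 and the weak hearts 7.79, 7.37 and 6.97 (replicates 1, 3 and 5). Among knockout hearts the strong hearts had 8.05 and 7.77 (replicates 1 and 5), the middle heart 7.55 and the weak hearts 7.44 and 6.64 (replicates 4 and 3). The last strong heart and the middle heart were thus close in both wild-type groups, and the highest weak wild-type heart at ZT12 lay above the second strong knockout heart. The strong and weak means were 0.685 apart on average over the 3 groups.

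**Figure D1:**
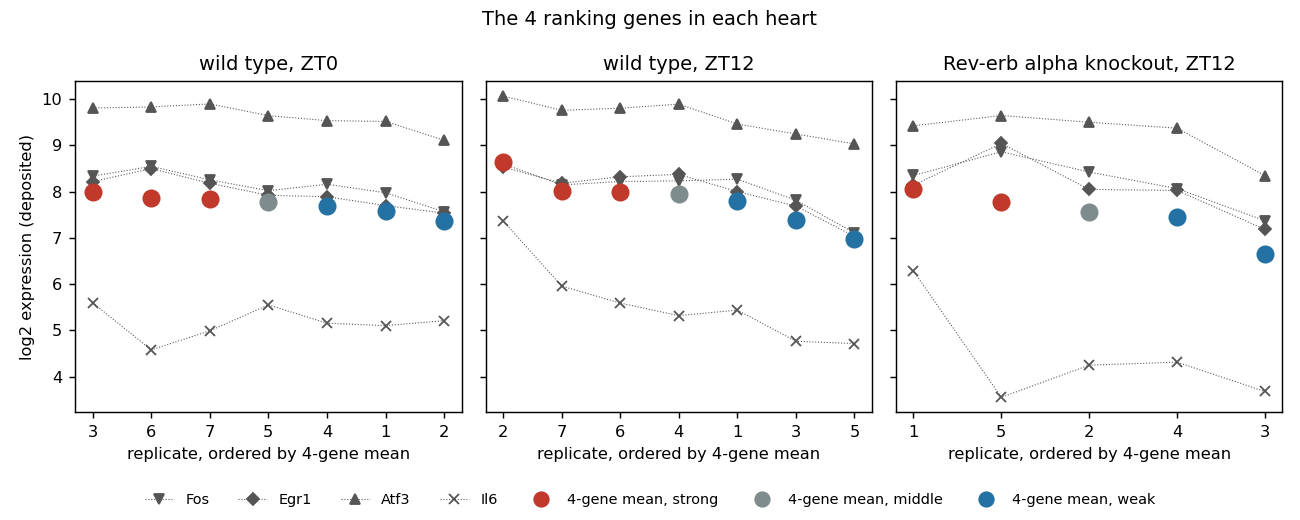
Log2 levels of Fos, Egr1, Atf3 and Il6 (small grey symbols) and their mean (large circles) in each of the 19 hearts, ordered within each group by the mean. Strong hearts are red, middle hearts grey and weak hearts blue. Il6 is highest in the heart of the highest mean at ZT12 in each genotype, and at ZT0 it is lower in strong replicate 6 than in any weak heart.

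The 4 ranking genes did not contribute alike. Egr1 and Atf3 were higher in every strong than in every weak heart of the same group, a description of genes used in the choice. Egr1 ran from 8.14 to 9.04 in strong and from 7.03 to 8.02 in weak hearts, and Fos from 8.14 to 8.86 and from 7.10 to 8.27. Il6 departed from the others. At ZT0 its mean was 5.05 ± 0.51 (SD, n = 3) in strong and 5.16 ± 0.05 (SD, n = 3) in weak hearts, while in wild-type hearts at ZT12 it was 6.31 ± 0.94 and 4.97 ± 0.40. Knockout replicate 5 had the highest Fos (8.86) and Egr1 (9.04) of all hearts and the lowest Il6 (3.55), whereas knockout replicate 1 had Il6 at 6.28. Leaving any of the 4 genes out of the mean moved 2 to 4 hearts between the strong and middle places and moved 0 hearts between strong and weak.

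No gene passed the test in the comparison of the 8 strong with the 8 weak hearts. The comparison used limma with group as covariate over 22176 genes, the 4 ranking genes left out, with p-values adjusted by Benjamini-Hochberg and called under 0.05. It called 0 genes (0%), and the smallest adjusted p was 0.238. At an unadjusted p under 0.05, 984 genes (4.44%) were higher and 874 (3.94%) lower in strong hearts. That balance depended on the scaling, with 1195 higher and 622 lower when arrays were centred on their medians, 901 and 937 after renewed quantile normalization, and 800 and 426 without dim genes. The test of whether the difference itself varied between the 3 groups also called 0 genes, with 1033 at an unadjusted p under 0.05 (4.66%). The median difference over all genes was close to 0 (-0.0022), and 49.1% of genes were higher in strong hearts.

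When all 19 hearts were used and the 4-gene mean entered the fit as a continuous value in place of the split, an alternative listed with the main test, limma called 67 genes higher (0.302%) and 8 lower (0.0361%) along the mean. Of the 67 genes, all 67 were higher in strong than in weak hearts and 64 had an unadjusted p under 0.05 in the split. With Il6 left out of the mean 23 genes were called higher and 2 lower, of which 16 and 1 were among the 67 and the 8. When single hearts were left out the counts fell most without hearts at the ends of the range, in refits chosen after seeing the data. Without knockout replicate 3, the heart of the lowest mean, 32 genes were called higher and 3 lower. Without wild-type ZT12 replicate 2, the heart of the highest mean, the counts were 33 and 3, without wild-type ZT12 replicate 5 they were 41 and 1, and without knockout replicate 1 they were 41 and 4. Among wild-type hearts alone 22 were called higher and 0 lower (limma), and 13 of the 67 genes but 0 of the 8 stayed called whichever single heart was left out. Slopes along the mean are given below per 0.685, the mean distance between strong and weak hearts, so that they can be read beside the split. A gene is said to have risen or fallen along the mean below only where it was called in this fit.

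Other immediate early genes were the list with the most members called along the mean. Of the 25 listed members measured, 23 were higher in strong hearts, 17 of them at an unadjusted p under 0.05 against 4.44% of all genes, and the median difference was 0.284 against -0.0022 over all genes. In the fit along the mean 16 of the 25 rose and 0 fell, and 6 of the 16 stayed called with Il6 left out of the mean. Transcripts of this class were used to choose the hearts, so this count describes how far the class moved together and is no independent result.

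Fosb, a partner of Jun in the AP-1 transcription factor, had the smallest p along the mean. In strong hearts it was 8.09, 8.10 and 7.70 at ZT0, 8.70, 7.87 and 7.91 in wild-type hearts at ZT12, and 8.28 and 8.59 in knockout hearts. In weak hearts it was 7.65, 7.57 and 6.96, then 8.02, 7.32 and 6.62, then 7.43 and 6.78. The ranges met only in wild-type hearts at ZT12, where weak replicate 1 lay above strong replicates 7 and 6. Its difference was 0.86 (SE 0.19, limma adjusted p = 0.36) in the split and 0.87 (adjusted p = 2.8e-05) along the mean.

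Nr4a1 encodes an orphan nuclear receptor induced by many stimuli. It was 9.62, 9.57 and 9.55 in strong and 9.24, 8.99 and 9.09 in weak hearts at ZT0. At ZT12 the wild-type hearts had 9.87, 9.59 and 9.79 when strong and 9.46, 9.36 and 8.81 when weak. In knockout hearts it was 9.46 and 9.71 against 9.19 and 8.49. Every strong heart lay above every weak heart of its group, with a difference of 0.57 (SE 0.11, limma adjusted p = 0.24) and a slope of 0.49 along the mean (adjusted p = 0.00059). Nr4a3, a second receptor of the family, was separated in the same way, with a difference of 0.54 and an adjusted p of 0.0077 along the mean, while Nr4a2 was separated in 2 of the 3 groups.

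Ier2, a small nuclear protein of the immediate early class, was 6.85, 7.22 and 6.57 in strong and 6.42, 6.28 and 6.15 in weak hearts at ZT0. In wild-type hearts at ZT12 it was 6.85, 6.65 and 6.70 against 6.36, 6.11 and 5.37, and in knockout hearts 6.40 and 6.99 against 6.26 and 5.93. It was separated in all 3 groups (difference 0.67, SE 0.13, limma adjusted p = 0.24 in the split and 0.011 along the mean). Btg2, a growth arrest gene, was also separated in all 3 groups, at 8.61 to 9.06 in strong and 7.95 to 8.75 in weak hearts, and rose by 0.40 along the mean. Jun (0.37), Junb (0.39), Fosl2 (0.38) and Csrnp1 (0.46) rose along the mean too, and 9 of the 25 were not called.

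**Figure D2:**
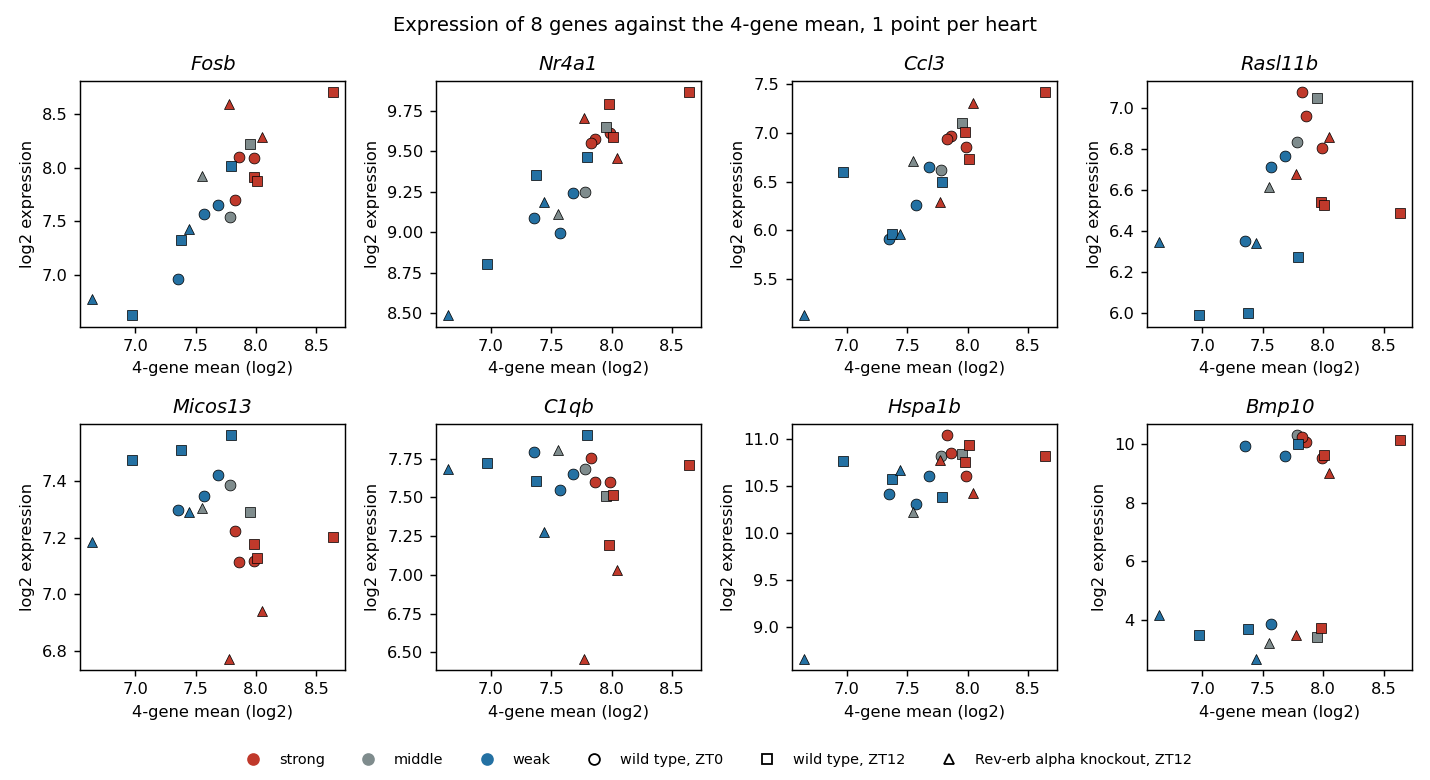
Log2 level of 8 genes (y axes, each with its own scale) against the 4-gene mean in the 19 hearts, with strong hearts red, middle hearts grey and weak hearts blue, and the group given by the symbol. Fosb, Nr4a1 and Ccl3 increase along the mean, Rasl11b and Micos13 differ between strong and weak hearts within a group, C1qb is lowest in knockout replicate 5, Hspa1b is lowest in knockout replicate 3, and Bmp10 is either above 9 or below 5.

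The promoters of the genes that rose along the mean were searched for the letters TGACG on both strands, the core of the element bound by CREB and ATF proteins. The 250 bases upstream of the start site were taken from RefSeq on GRCm38.p6, and the full palindrome TGACGTCA, which holds the core on both strands, was counted separately. The core was found for 26 of the 50 genes with an entry among the 67 (52%), and for 3939 of the 16987 tested genes with an entry (23.2%). The full palindrome was found for 8 of the 50 (16%) and for 2.30% of all. Among the 25 genes with an entry that were separated upward in all 3 groups the core was found for 7 (28%). It was found for 14 of the 20 immediate early genes with an entry (70%) and for all 3 ranking genes with an entry. The 67 were called for following the ranking genes and include immediate early genes, so their share is no independent result. A match describes the letters only, and no binding was measured. The promoters of Fos, a ranking gene, of Nr4a1 and Btg2, which were separated in all 3 groups, and of Ppp1r15a, described below, show the core in the 2 arrangements. Capitals mark the matches, each sequence reads 5′ to 3′ in the direction of the gene, and the last base is next to the start site. Fos is at chr12:85473640-85473889 on the plus strand, Nr4a1 at chr15:101266596-101266845 on the plus strand, Btg2 at chr1:134079156-134079405 on the minus strand and Ppp1r15a at chr7:45526269-45526518 on the minus strand.
Fos: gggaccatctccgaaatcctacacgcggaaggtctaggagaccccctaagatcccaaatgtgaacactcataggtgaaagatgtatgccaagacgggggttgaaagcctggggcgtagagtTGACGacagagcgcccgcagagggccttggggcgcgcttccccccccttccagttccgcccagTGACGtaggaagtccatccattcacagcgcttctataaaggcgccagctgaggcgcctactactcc
Nr4a1: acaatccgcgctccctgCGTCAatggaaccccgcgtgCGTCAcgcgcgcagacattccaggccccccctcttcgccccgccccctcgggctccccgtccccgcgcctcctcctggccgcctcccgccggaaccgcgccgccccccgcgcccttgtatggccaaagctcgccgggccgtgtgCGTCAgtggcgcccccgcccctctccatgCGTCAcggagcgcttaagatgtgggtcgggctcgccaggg
Btg2: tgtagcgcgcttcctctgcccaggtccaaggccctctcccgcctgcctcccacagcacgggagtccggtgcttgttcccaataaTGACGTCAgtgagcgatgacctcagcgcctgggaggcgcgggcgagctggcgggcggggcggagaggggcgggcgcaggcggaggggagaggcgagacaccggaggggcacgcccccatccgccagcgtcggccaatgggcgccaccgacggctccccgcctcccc
Ppp1r15a: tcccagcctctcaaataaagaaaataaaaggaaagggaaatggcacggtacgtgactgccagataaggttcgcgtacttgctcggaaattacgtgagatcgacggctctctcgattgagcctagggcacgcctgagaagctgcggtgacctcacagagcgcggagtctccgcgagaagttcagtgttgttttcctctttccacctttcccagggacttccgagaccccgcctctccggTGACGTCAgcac
Fos holds 2 separate cores and Nr4a1 holds 4 on the opposite strand, while Btg2 and Ppp1r15a each hold the full palindrome, close to the start site in Ppp1r15a.

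Feedback genes of inflammatory and MAP kinase signalling followed the ranking with the immediate early genes. Reperfusion is known to switch on such genes together with the class that ranked the hearts, so the counts here are no independent result. Of 16 measured feedback genes of the NF-kappaB pathway, all 16 were higher in strong hearts, against 49.1% of all genes, with a median difference of 0.228. At an unadjusted p under 0.05, 9 were higher, against 4.44% of all genes. Along the mean 5 rose, against 0.302% of all genes, 1 of them also with Il6 left out. Zfp36, which encodes a protein that destabilises cytokine messages, was 8.51, 8.38 and 8.31 in strong and 8.32, 7.99 and 7.76 in weak hearts at ZT0. Wild-type hearts at ZT12 had 9.10, 8.47 and 8.58 against 8.35, 8.14 and 7.07, and in knockout hearts 8.64 and 8.82 against 8.24 and 7.85. The strong and weak hearts overlapped at ZT0 by the narrow margin of weak replicate 4 over strong replicate 7 and were separate in the other groups. Zfp36 rose by 0.65 along the mean (limma adjusted p = 0.00018) and differed by 0.64 in the split (adjusted p = 0.41). Nfkbiz (0.46 along the mean) and Nfkbid (0.43), regulators of the IkappaB family, rose as well. Strong and weak hearts overlapped for Nfkbiz in all 3 groups, while Nfkbid was separated in 2 of the 3. Of 13 genes that dampen MAP kinase signalling, 12 were higher in strong hearts, against 49.1% of all genes, with a median of 0.139. Along the mean 3 of the 13 rose, against 0.302% of all genes, among them Dusp6 (0.33), a phosphatase of ERK.

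Cytokine and chemokine genes were higher in strong hearts to a less uniform extent. Of 23 measured, 18 were higher, against 49.1% of all genes, and the median difference was 0.235. At an unadjusted p under 0.05, 10 were higher and 1 lower, against 4.44% and 3.94% of all genes. Along the mean 6 rose, against 0.302% of all genes. Those that rose along the mean were Il1b (0.76), Ccl3 (0.71), Tnf (0.61), Il1a (0.59), Ccl2 (0.56) and Cxcl1 (0.51), all of which recruit or activate leukocytes. Il6, itself a cytokine, is part of the mean that ranked the hearts, so these counts are no independent result. With Il6 left out of the mean 0 of the 23 were called, and the slopes of the 6 were 0.35 for Cxcl1 (limma adjusted p = 0.37) to 0.64 for Il1b (0.15), with the smallest adjusted p for Ccl3 (0.080). Ccl3 was 6.86, 6.97 and 6.94 in strong and 6.65, 6.26 and 5.91 in weak hearts at ZT0. At ZT12 wild-type Ccl3 was 7.42, 6.73 and 7.01 against 6.49, 5.96 and 6.60, and in knockout hearts 7.31 and 6.29 against 5.96 and 5.13. It was separated in all 3 groups, and its difference of 0.82 (SE 0.17, limma adjusted p = 0.26) was the largest of the 12 named higher genes.

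Il1b did not follow the ranking at ZT0. There it was 6.82, 6.70 and 6.40 in strong and 6.48, 6.996 and 6.54 in weak hearts, a difference of -0.03. In wild-type hearts at ZT12 it was 6.92, 6.48 and 6.92 against 6.26, 5.51 and 5.08, a difference of 1.16. Tnf gave 0.16 at ZT0, 0.78 in wild-type hearts at ZT12 and 0.94 in knockout hearts, and Il1a gave 0.02, 0.92 and 0.74. These differences between groups were not called by the test of the interaction, which called 0 genes. Of 11 genes of the IL-6 receptor pathway 2 were higher at an unadjusted p under 0.05, against 4.44% of all genes. These were Pim1 (0.27) and Osmr (0.23), a receptor subunit for oncostatin M, and 0 of the 11 rose along the mean.

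Macrophage markers had medians below 0 in both ZT12 groups and above 0 at ZT0. The 12 markers had a median difference of -0.165, and 10 of the 12 were lower in strong hearts over all groups. The other 2 (16.7%) were higher, against 49.1% of all genes. By group the median was 0.0469 at ZT0, -0.105 in wild-type hearts at ZT12 and -0.654 in knockout hearts, and it was -0.0329 in wild-type hearts alone. The test of the interaction called 0 genes, so these groups are not shown to differ. At an unadjusted p under 0.05, 3 of the 12 were lower and 1 higher, against 3.94% and 4.44% of all genes. Lyz2 (-0.35), C1qb (-0.29) and F13a1 (-0.30) were the lower ones, and Ccr2, a receptor of recruited monocytes, was higher (0.25). At ZT0 the differences of Lyz2, C1qb and F13a1 were -0.03, -0.01 and -0.03. The summed level of the list, as a mean over its genes, was 5.64 to 6.58 in strong and 6.22 to 6.66 in weak hearts. Its lowest value was that of knockout replicate 5, where C1qb was 6.46 against 7.03 to 7.90 in the other hearts, and without that heart the median was -0.057 and without knockout replicate 3 it was -0.081. The 11 neutrophil markers had means of 2.38 to 2.55 in strong and 2.34 to 2.54 in weak hearts, near the lower end of the array's scale. In whole tissue fewer cells of a type and less RNA for each cell cannot be told apart.

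Genes of DNA damage and translation control held further members that followed the ranking. Of 16 listed targets of p53, 9 were higher in strong hearts (56.25%, against 49.1% of all genes), with a median difference of 0.0785. At an unadjusted p under 0.05, 5 were higher and 1 lower, against 4.44% and 3.94% of all genes. Along the mean 4 rose, against 0.302% of all genes: Gadd45g (0.68), Gadd45b (0.59), Plk3 (0.41) and Tnfrsf10b (0.40). These 4 are also known to respond to stress without p53. Stress-induced genes, Atf3 among them, ranked the hearts, so these counts are no independent result. Plk3, a stress-activated kinase, was 5.51, 5.41 and 5.23 in strong and 5.02, 4.93 and 4.94 in weak hearts at ZT0, with 5.97, 5.53 and 5.71 against 5.28, 5.47 and 5.32 in wild-type hearts at ZT12. In knockout hearts it was 5.41 and 5.64 against 5.02 and 4.37, so that it was separated in all 3 groups (difference 0.51, SE 0.10, limma adjusted p = 0.24).

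Ddit3 and Ppp1r15a encode CHOP and GADD34, which act late in the integrated stress response, GADD34 by restarting translation. Ddit3 was 6.54, 7.01 and 7.01 in strong and 6.28, 6.61 and 6.06 in weak hearts at ZT0. Wild-type levels at ZT12 were 7.07, 7.01 and 7.07 against 6.54, 6.59 and 6.29, and in knockout hearts 6.64 and 6.53 against 6.44 and 6.21. It overlapped at ZT0 only, with a difference of 0.48 (SE 0.09, limma adjusted p = 0.24) and an adjusted p of 0.13 along the mean. Ppp1r15a differed by 0.42 and rose by 0.38 along the mean (adjusted p = 0.0017), and Slc3a2, an amino acid transporter subunit, was separated in all 3 groups and rose by 0.27. The list of ATF4 targets as a whole had a median of 0.0296 over 21 genes. The 20 endoplasmic reticulum chaperone genes had a median of 0.0117. At an unadjusted p under 0.05 they had 0 members, against 4.44% of all genes higher and 3.94% lower. The hearts were ranked by stress-induced genes, so the differences of Ddit3, Ppp1r15a and Slc3a2 are no independent result.

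Several inducible heat shock genes were higher in strong hearts, and knockout replicate 3 stood apart in them. Of 20 listed, 8 were higher and 1 lower at an unadjusted p under 0.05, against 4.44% and 3.94% of all genes. Along the mean 0 rose. The hearts were ranked by stress-induced genes, so these counts too are no independent result. The median was 0.0237, which turned to -0.0014 without knockout replicate 3 and to -0.00032 without knockout replicate 5. Dnajb1, a co-chaperone, was 8.06, 8.52 and 8.56 in strong and 8.20, 7.91 and 7.57 in weak hearts at ZT0, 8.40, 8.32 and 8.39 against 7.88, 7.71 and 8.06 in wild-type hearts at ZT12, and 8.03 and 8.58 against 8.21 and 6.47 in knockout hearts. The value of 6.47 belongs to knockout replicate 3, which also had the lowest Hspa1b (8.66, other hearts 10.2 to 11.04). Hmox1, the heme-degrading enzyme, ranged from 6.03 to 7.46 in strong and from 5.07 to 6.85 in weak hearts (difference 0.72, SE 0.23, limma adjusted p = 0.47). Gclc, the catalytic subunit of glutathione synthesis, was separated in 2 of the 3 groups (0.28, SE 0.07, adjusted p = 0.41).

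A smaller set of genes separated strong from weak hearts in every group. In all 3 groups every strong heart lay above every weak heart for 34 genes (0.153%) and below for 20 genes (0.0902%). Beside Nr4a1, Nr4a3, Ier2, Btg2, Plk3, Ccl3 and Slc3a2, the 34 held Rasl11b, a small Ras-like GTPase, which was 6.80, 6.96 and 7.08 in strong and 6.77, 6.71 and 6.35 in weak hearts at ZT0. In wild-type hearts at ZT12 Rasl11b was 6.49, 6.53 and 6.54 against 6.28, 5.999 and 5.99, and in knockout hearts 6.86 and 6.68 against 6.34 and 6.35. Its difference of 0.40 (SE 0.07) had the smallest p of the higher genes (limma adjusted p = 0.24), yet it was not called along the mean (adjusted p = 0.16), and the middle heart of the wild-type ZT12 group had 7.05, above all strong hearts of that group. RNA processing genes were among the 34, with smaller differences: Srrm1 (0.23) and Srsf2 (0.18), splicing factors, Hnrnph1 (0.16) and Ewsr1 (0.16). These 4 were picked from the 34 after their values were seen.

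**Figure D3:**
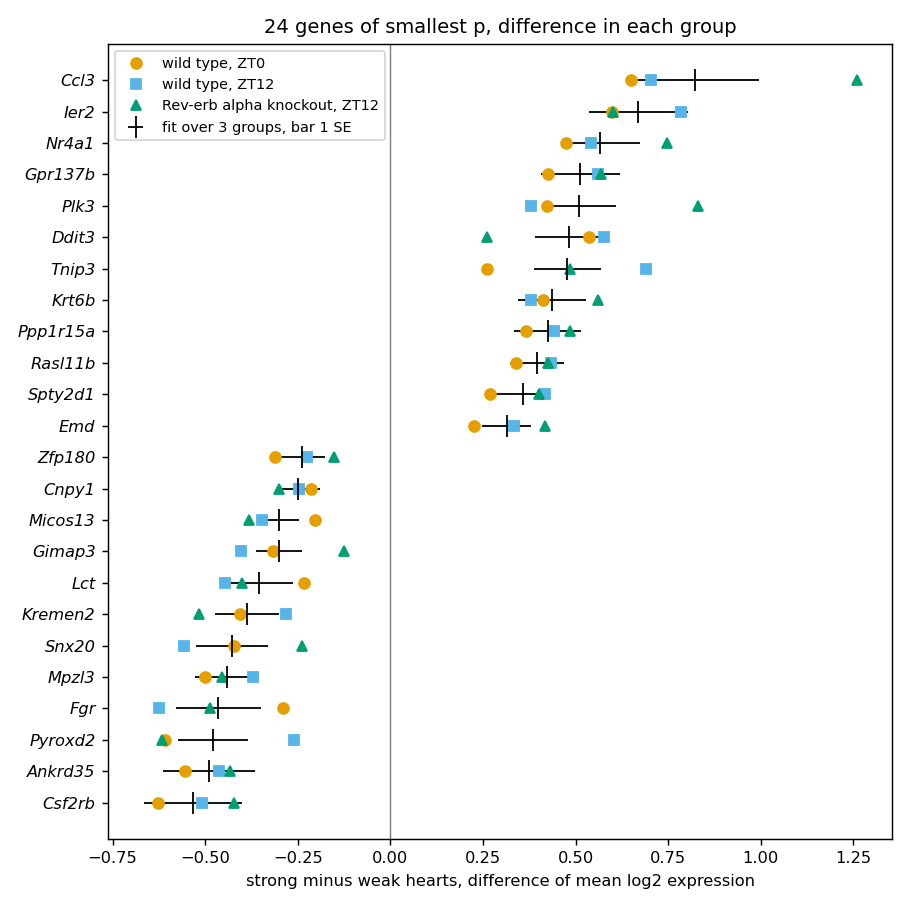
Strong minus weak difference of mean log2 level in each of the 3 groups (coloured symbols) and in the fit over the 3 groups (black mark, bar 1 SE) for the 12 higher and 12 lower genes of smallest p. All 24 genes have the same sign in the 3 groups, which the rule for naming them required, and none was called at an adjusted p under 0.05.

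The strong and weak hearts of the knockout group were set against genes found in the wild-type groups only. These groups use other hearts, but all hearts were split by the same ranking genes. Every strong heart lay above every weak heart in both wild-type groups for 103 genes (0.464%), and 83 of these (80.6%) were also higher in strong than in weak knockout hearts, against 50.3% of all genes. The median knockout difference of the 103 genes was 0.119. Every strong heart lay below every weak heart in both wild-type groups for 75 genes (0.338%), and 51 of these (68%) were lower in strong knockout hearts, against 49.7% of all genes. The median of the 75 was -0.059. The 103 genes include immediate early genes, the class used to choose the knockout hearts as well. Genes that vary together in the same few knockout hearts are not separate observations. The shares therefore describe how far genes moved together and are no independent result.

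Among the genes lower in strong hearts, Micos13, a subunit of the complex that shapes mitochondrial cristae, was 7.12, 7.11 and 7.22 in strong and 7.42, 7.35 and 7.30 in weak hearts at ZT0. In wild-type hearts at ZT12 it was 7.20, 7.13 and 7.18 against 7.56, 7.51 and 7.47, and in knockout hearts 6.94 and 6.77 against 7.29 and 7.18. It was separated downward in all 3 groups (-0.30, SE 0.05, limma adjusted p = 0.24) but was not called along the mean (-0.16, adjusted p = 0.40). Ckm and Ckmt2, the muscle and mitochondrial creatine kinases, were separated in the same way with differences of -0.16 and -0.13, whereas the 12 cardiomyocyte markers to which they belong had a median of -0.0114.

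The other lower genes of the naming rule mostly had low signals. Snx20 (-0.43), a sorting nexin of blood cells, was 3.56 to 4.20 in strong and 4.15 to 4.69 in weak hearts, and Fgr (-0.46), Csf2rb (-0.53), Gimap3 (-0.30), Mpzl3 (-0.44), Pyroxd2 (-0.48), Kremen2 (-0.39), Cnpy1 (-0.25), Ankrd35 (-0.49) and Lct (-0.36) had mean levels of 2.49 to 3.83 in strong hearts. Zfp180 (-0.24) was at 5.33. Along the mean the 8 genes that fell included Bdh1, an enzyme of ketone body use, by 0.51 (limma adjusted p = 0.021). Bdh1 was 6.28, 5.59 and 6.16 in strong and 5.93, 6.11 and 6.03 in weak hearts at ZT0, a difference of -0.01, and 5.07, 5.43 and 5.96 against 5.86, 6.20 and 6.72 in wild-type hearts at ZT12. Its call was lost without any of 3 hearts, knockout replicate 3 and wild-type ZT12 replicates 2 and 5. Of the 8 genes that fell, 6 had a mean under 4 in weak hearts, as had 5 of the 67 that rose.

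The remaining higher genes of the naming rule were Tnip3 (0.48), an inhibitor of NF-kappaB signalling, Gpr137b (0.51), Krt6b (0.44), Emd (0.31), the nuclear envelope protein emerin, and Spty2d1 (0.36), a histone chaperone. Tnip3 was 4.44 to 5.13 in strong and 4.14 to 4.62 in weak hearts and was not called along the mean (limma adjusted p = 0.11). Emd and Spty2d1 rose along the mean, with adjusted p-values of 0.042 and 0.0067. Krt6b, a keratin, had means of 2.66 in strong and 2.21 in weak hearts, near the bottom of the scale.

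Lists of metabolism and of ion handling had medians near 0. The 24 genes of oxidative phosphorylation had a median of -0.0352, the 26 of fatty acid oxidation 0.00935, the 16 of glycolysis -0.0365 and the 23 of ion channels and calcium handling 0.0363. The split and the fit along the mean each called 0 genes of these lists. Of the oxidative phosphorylation genes 25% were higher in strong hearts and of the glycolysis genes 31.25%, against 49.1% of all genes. Leaving out single hearts gave medians of -0.0416 to -0.0271 for oxidative phosphorylation and -0.0533 to -0.0250 for glycolysis. Cox6a2, the heart form of a cytochrome oxidase subunit, was an exception in direction, being higher in every strong heart of all 3 groups (0.31, SE 0.09, limma adjusted p = 0.42). Cox7a1 of the same complex differed by -0.16 and Ppargc1a, a coactivator of mitochondrial genes, by 0.20. Of 12 listed stress genes of the heart muscle 6 were higher in strong hearts (50%, against 49.1% of all genes). Their median difference was 0.0311, with single differences of -0.53 to 0.81. At an unadjusted p under 0.05, 3 were higher and 0 lower, against 4.44% and 3.94% of all genes. Among them Xirp1, an actin-binding protein of the intercalated disc, was separated in all 3 groups (0.25, SE 0.06, limma adjusted p = 0.41). Myh7, the slow myosin heavy chain, differed by 0.81 (SE 0.25, adjusted p = 0.47), with 0.26 at ZT0 and 1.76 in knockout hearts, where it was 7.96 and 9.05 against 7.28 and 6.22.

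**Figure D4:**
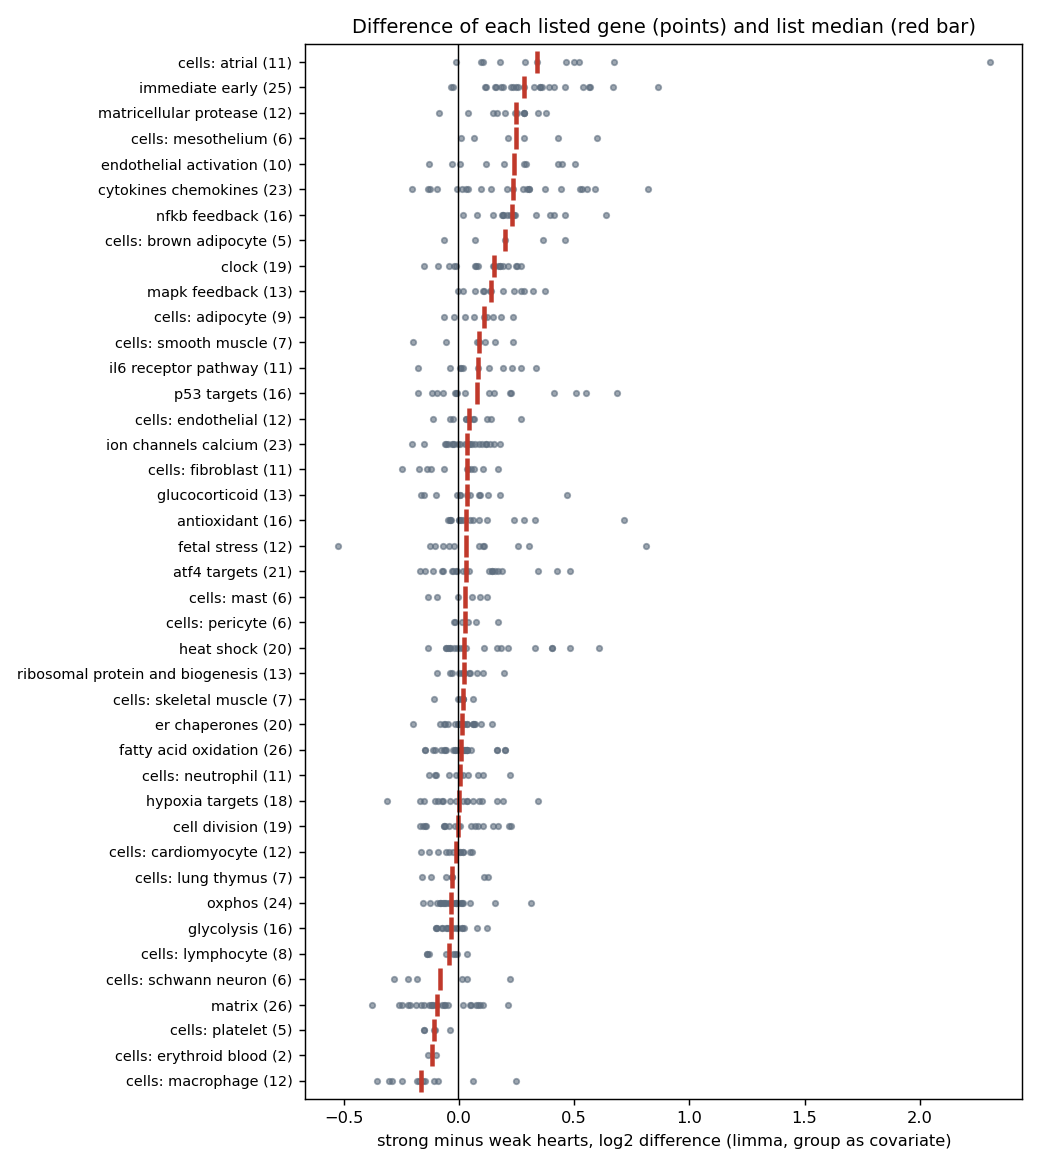
Strong minus weak log2 difference of each measured gene (points) in the 41 gene lists, with the number of genes in brackets and the list median as a red bar, ordered by median. The vertical line marks the median of all genes. The immediate early, NF-kappaB feedback and cytokine lists lie to the right, as do the atrial and mesothelium lists, and the macrophage list lies lowest.

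Atrial and mesothelium markers had medians above 0, with 0 members called in the split or along the mean. Bmp10, a growth factor made by atrial muscle, was at 9 or above in 6 of 8 strong, 1 of 3 middle and 3 of 8 weak hearts, and below 5 in all others. The 11 atrial markers had a median difference of 0.337, which was 0.131 without wild-type ZT12 replicate 5 and 0.177 without knockout replicate 1, with list means of 6.24 to 8.60 in strong and 6.30 to 8.73 in weak hearts. Of the 11, 10 were higher in strong hearts, against 49.1% of all genes, and 0 passed an unadjusted p under 0.05. The 6 mesothelium markers, of the sheet that covers the heart, were all higher, against 49.1% of all genes, with a median of 0.247. At an unadjusted p under 0.05, 3 of the 6 were higher and 0 lower, against 4.44% and 3.94% of all genes. Their list means were 3.73 to 4.52 in strong and 3.67 to 4.19 in weak hearts. Upk3b was 4.81 to 6.17 in strong and 4.24 to 5.998 in weak hearts. When the mean of the atrial list was added to the fit along the mean, limma called 55 genes higher, 46 of them among the 67, and with the mesothelium list mean it called 49, of which 42 were among the 67. Whether the amount of atrial or covering tissue has a part in the other differences was not tested beyond these fits.

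Lists of vessel activation and matrix remodelling had medians above 0 without a called member in the split. The 10 endothelial activation genes had a median of 0.239. Plaur (0.43), the urokinase receptor, and Icam1 (0.28), a leukocyte adhesion molecule, had the smallest p among them, and the largest difference in the list was 0.50. The 12 matricellular genes and proteases had a median of 0.247, with Edn1 (0.34), the precursor of endothelin-1, and Ccn1 (0.28). Thbs1, which encodes a secreted adhesion protein, differed by 0.28 in the split and rose by 0.39 along the mean. Without knockout replicate 1 these medians were 0.154 and 0.142. The 26 matrix genes had a median of -0.0956, which was -0.0348 without knockout replicate 5 and -0.044 without knockout replicate 3, and Fbln2 (-0.22) and Timp3 (0.21) had the smallest p among them. The clock list had a median of 0.151 over 19 genes, of which 14 were higher in strong hearts, against 49.1% of all genes. At an unadjusted p under 0.05, 4 were higher and 0 lower, against 4.44% and 3.94% of all genes. Per3 (0.27) and Cry2 (0.25), both repressors of the clock, had the smallest p among them. Hearts were ranked within a time of day, so the split does not compare times.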

How the data were processed

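Total RNA of 19 mouse hearts was measured on Affymetrix whole-transcript arrays. The deposited values are log2 probe set summaries made by the authors with RMA, per the submitters' processing notes. RMA normalizes quantiles across arrays, which removes shifts common to all genes. The log2 scale was taken from the values (0.21 to 12.9), and the software version is not given in the sources used here. Of 41345 probe sets, 23521 named 1 gene in the platform annotation; 1814 named several genes and 16010 none, and these were left out. A gene was represented by its probe set of highest mean (1082 of 22180 genes had more than 1). 0 columns of values were left unused.

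The test of strong against weak hearts was limma 3.58.1 under R 4.3.3 (lmFit with group as covariate, then eBayes without trend, 12 residual degrees of freedom, two-sided, Benjamini-Hochberg over 22176 genes, called under 0.05). Alternatives changed the ranking value, normalization, filter on dim genes, probe set rule, trend, block and tissue covariates, and left out single hearts. The fit was tested on simulated data. Lists were described by counts and medians with no test.

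Genes were named by a rule: the ranking genes, the called genes or else the 12 of smallest p in each direction with 1 sign in the 3 groups (clones, predicted genes, small RNAs, immunoglobulin and olfactory genes left out), and for each list up to 4 called genes or else the 2 of smallest p. Genes outside the rule, among them Fosb, Tnf, Il1b, Btg2, Hspa1b, C1qb and Bdh1, were picked once their values were known. Zfp36 was picked in this way too but also met the rule through its list. The groups of hearts and the lists were chosen with earlier results of these data known.

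Hearts share replicate numbers across groups, and the deviations of same-numbered hearts from their group means correlated between -0.072 and 0.074, so the numbers were not used as pairs.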

Additional observations from a re-analysis of the deposited data

Results flagged for a closer look

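In groups of 5 or 7 hearts, the following values lay apart from the rest of their group by Dixon's criterion among 390 groups of values examined, where chance alone marks about 1 in 20 groups. No cause was tested.

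Knockout replicate 3, a weak heart, was lowest in its group for Atf3 (8.35), Dnajb1 (6.47), Hspa1b (8.66), Jun (9.37) and Plin4 (7.34), and highest for Bdh1 (6.01). Knockout replicate 1, a strong heart, was highest for Il6 (6.28), Bmp10 (9.01), Elovl3 (5.07) and Nr4a2 (7.20).

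Wild-type ZT12 replicate 5, a weak heart, was lowest for Btg2 (7.95), Cry2 (5.30) and Tbx5 (5.95) and highest for Hcn2 (5.20). Replicate 1 of the same group, also weak, was highest for Col1a1 (6.85) and Lyz2 (8.68). Among its strong hearts replicate 7 was highest for Angptl4 (5.37) and lowest for Kremen2 (3.63), and replicate 2 was highest for Osmr (7.58). The middle heart, replicate 4, was highest for Epb42 (2.86).

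At ZT0 weak replicate 1 was lowest for Bmp10 (3.86) and Lrrn4 (2.70) and highest for Lct (3.57), and weak replicate 4 was highest for Fgr (3.86). Strong replicate 7 was highest for Dusp10 (5.30), and strong replicate 6 for Gja1 (9.99).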

How the results depend on the processing

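The count of 0 called genes in the split of strong and weak hearts held under renewed quantile normalization, median centring, a filter on dim genes, averaged probe sets, eBayes with trend, wild-type hearts alone, the middle hearts as a level and the atrial, adipocyte, neutrophil, macrophage or mesothelium list as a covariate. With the mean as a continuous value over 19 hearts 67 genes were higher and 8 lower, with the mean of Fos, Egr1 and Atf3 without Il6 23 and 2, and with the 4 genes scaled within groups 34 and 2. With the replicate number as a block, which does not pair these hearts, 3 were higher (Gadd45b, Gadd45g and Nr4a2) and 0 lower in the split, and 13 were higher and 0 lower along the mean. Leaving out single hearts gave 0 to 0 genes higher and 0 to 1 lower in the split (C330024C12Rik, without knockout replicate 1, a gene outside the naming rule that was chosen after its values were seen), and 32 to 73 higher and 1 to 9 lower along the mean. The interaction count stayed at 0 in each fit run for it. The alternatives to the fit along the mean were chosen after seeing the data. Wild-type hearts alone gave 22 higher and 0 lower, and the counts were 58 and 5 with the macrophage list mean as covariate, 49 and 5 with the mesothelium list mean, 55 and 6 with the atrial list mean, and 73 and 6 with centred arrays. The causes of these shifts were not tested.

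Among single named genes, 3894 values under alternatives kept their direction and side of the threshold, 64 became called and 17 turned direction, none of the latter called. Along the 4-gene mean these were Cspg4 (-0.018), Kit (0.028), Nkg7 (0.028) and Tnnt3 (-0.063). Along the mean without Il6 they were Epb42 (0.022), Nkg7 (0.00073) and Tnnt3 (-0.012), and with scaled genes Kit (0.0066) and Tnnt3 (-0.015). With the replicate block they were Cspg4 (-0.029), Ddr2 (-0.026), Nkg7 (0.031) and Sftpa1 (0.042). Pf4 turned among wild-type hearts (0.067), with the macrophage covariate (0.056) and in leaving out single hearts (range -0.156 to 0.00050), and Upk3b turned with the mesothelium covariate (-0.0076).

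The number of arrays limits the precision of a difference, whose median SE was 0.0884 for 8 hearts against 8, and values below 4 lie at the lower end of the array scale.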

Other observations

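Ccnl1, a cyclin linked to splicing and in none of the lists, rose by 0.38 along the 4-gene mean (limma adjusted p = 0.00057) and was 7.54 in strong and 7.16 in weak hearts on average, and it stayed called whichever single heart was left out. The next 3 genes belong to lists and were not called in either fit. Angptl4, a lipoprotein lipase inhibitor of the glucocorticoid list, differed by 0.47 (adjusted p = 0.49 in the split and 0.42 along the mean). Hbegf, a growth factor that binds the EGF receptor, differed by 0.28, with 0.25, 0.26 and 0.34 in the 3 groups, and had an adjusted p of 0.12 along the mean. Nop56, of ribosome assembly, differed by 0.19, with 0.18, 0.19 and 0.21 in the 3 groups (adjusted p = 0.47 along the mean).

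Of the 18 hypoxia targets 9 were higher in strong hearts, with a median difference of 0.0022 and single differences of -0.31 to 0.34. At an unadjusted p under 0.05, 2 were higher and 3 lower, against 4.44% and 3.94% of all genes. The 2 higher ones were Pfkfb3 (0.34), which activates glycolysis, and Ndrg1 (0.19). Of 19 cell division genes 9 were higher, with a median of -0.0058. At an unadjusted p under 0.05, 2 of the 19 were higher and 0 lower, against 4.44% and 3.94% of all genes. These were the replication licensing genes Mcm3 (0.23) and Mcm4 (0.22), and 0 of the 19 were called. Dbh, an enzyme of noradrenaline synthesis, was lower in every strong than in every weak heart of its group (-0.18). Its means of 2.28 and 2.46 lie at the lower end of the array scale. It is 1 of 6 measured Schwann cell and neuron markers, of which 3 had a difference above 0. At an unadjusted p under 0.05, 3 of the 6 were lower and 1 was higher, Mbp (0.22), against 3.94% and 4.44% of all genes.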
